A study of Mus musculus with 2 samples.

Results

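The enzymes that write and remove DNA methylation were compared between teratomas of E14 and E14-Sox2TA/WT mouse embryonic stem cells (ESCs). The set was chosen by gene symbol and consisted of 9 genes, namely Dnmt1, Uhrf1, Dnmt3a, Dnmt3b, Dnmt3l, Tet1, Tet2, Tet3 and Tdg, out of the 45777 genes in the deposited mm10 table. All 9 genes had a row in the table. No measured value entered the choice by rule, although the set was proposed with earlier results of these data known.

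The study asked how O-GlcNAcylation of the pluripotency factor Sox2 at threonine 258 affects ESC maintenance and cell fate. RNA-seq was available for 1 teratoma library per group, harvested 14 days after ESCs in Matrigel were inoculated subcutaneously into BALB/c-nu mice, an immunodeficient strain that still has macrophages, neutrophils and blood vessels of its own. E14 is the parental ESC line with unedited Sox2, cultured in serum and LIF. E14-Sox2TA/WT is its CRISPR/Cas9-edited derivative, in which threonine 258 is replaced by alanine on 1 allele of Sox2 while the other allele is unedited. It was grown from sorted single cells, kept in serum, LIF and the inhibitors called 2i, and used after 2i was withdrawn. How many clones were used is not given in the sources used here, and the edit, a clonal difference and the earlier culture in 2i cannot be told apart. A total of 3 mice were inoculated per group, and whether a library came from 1 teratoma or several was not given in the sources used here. The tissue label names teratoma, but the extraction protocol in the labels speaks of an ESC line.

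The E14 library held 50529171 reads on genes and the E14-Sox2TA/WT library 49030281, and the group names below stand for these libraries. Sox2, the edited gene, had a level of 245.7 and 130.1 TPM, respectively, where TPM is a read count per transcript length rescaled to the same total in each library, and its alleles were not separated. Differentiated lineages were detected in both libraries, with summed TPM of 3489 and 575 for 13 neuronal markers and of 157 and 740 for 6 endoderm markers. In E14 the endoderm sum was mostly Krt8 (118 TPM) and Foxa2 (35.3 TPM), whereas Afp, Ttr and Apoa1 had 0.614, 1.32 and 2.45 TPM and Cdx2 had 0 reads. With 1 library per group, no difference has a replicate check and no test was possible. Intervals are 95% intervals of read counts, which cover counting error only and concern the 2 libraries, not the genotypes. They are Clopper-Pearson intervals for a gene between libraries, exact conditional intervals for a change in the ratio of 2 genes, and Poisson intervals for levels. In whole tumors, fewer cells of a type and less RNA per cell cannot be told apart.

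DNA methylation in mammals sits mainly on the cytosine of CpG pairs and is known for silencing promoters, transposons and imprinted alleles. DNMT1, brought to newly replicated DNA by UHRF1, copies the existing pattern after each round of DNA synthesis, whereas DNMT3A and DNMT3B, aided by the catalytically inactive DNMT3L, set new methylation as the embryo leaves the naive pluripotent state. TET1, TET2 and TET3 oxidize 5-methylcytosine, and the glycosylase TDG excises the most oxidized forms, which base excision repair then replaces with unmodified cytosine.

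The set did not differ between the libraries in a common direction. The de novo pair Dnmt3b and Dnmt3l was higher in E14-Sox2TA/WT, by 4.86-fold and 38.6-fold. Tet3 was 2.41-fold lower there. The other 6 genes were within 2-fold. The rule of the methods calls a gene when its TPM ratio exceeds 2-fold and its TPM is at least 10 in at least 1 library. By this rule 2 of the 8 genes that reached 10 TPM were higher, beside 10.8% of the 11578 genes at that level, and 1 was lower, beside 18.7%. Tet1 was the gene that did not reach 10 TPM. Regardless of size, 3 genes were higher and 6 were lower on TPM, beside 47.5% higher and 52.5% lower of the 18558 genes with at least 1 TPM in at least 1 library, with the direction of Dnmt3a and Tet1 depending on the scaling, and the median log2 ratio of the 9 genes, with 1 added to each TPM, was -0.07. Over those 18558 genes it was -0.06, so on TPM the median of the set was close to that of all genes. After centring on genes of similar length, described below, the median of the set was 0.54. Over all genes with at least 10 TPM it was then -0.12.

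The order of the levels differed between the libraries, as shown in the plot of levels by gene. In the E14 library the order was Uhrf1, Dnmt1, Dnmt3a, Tdg, Tet3, Tet2, Dnmt3b, Tet1 and Dnmt3l, and the counting intervals of neighbours in this order overlapped for Uhrf1 and Dnmt1 alone. In the E14-Sox2TA/WT library the order was Uhrf1, Dnmt3l, Dnmt3b, Dnmt1, Dnmt3a, Tdg, Tet3, Tet1 and Tet2, with overlapping intervals for Tet1 and Tet2 alone. Dnmt3l moved from the last place to the place after Uhrf1.

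**Figure D1:**
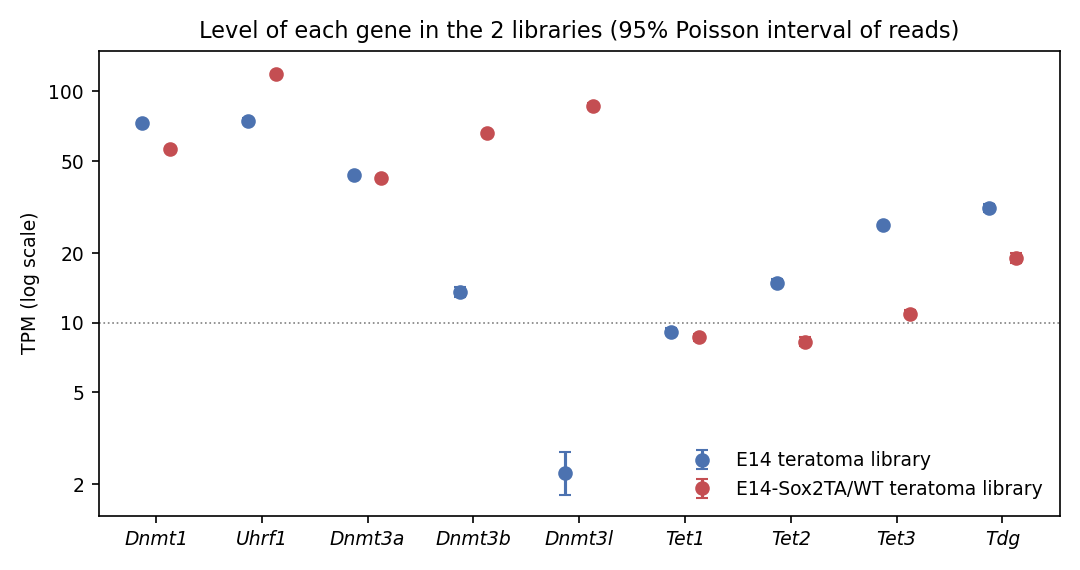
The vertical axis gives TPM on a log scale for each of the 9 genes, with blue points for the E14 library, red points for the E14-Sox2TA/WT library, bars for the 95% Poisson interval of the reads, and a dotted line at 10 TPM. Dnmt3l lies at 2.25 in E14 and 86.7 in E14-Sox2TA/WT, the widest gap, while the points of Dnmt3a at 43.5 and 42.4 nearly coincide.

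The ratios depended in part on how the libraries were scaled. The median log2 ratio of the genes with at least 10 TPM was -0.18 on TPM and 0.01 on FPKM (reads per transcript length and library total), a shift that applies to every gene. The ratio also depended on transcript length. Among genes with at least 1 TPM sorted into 20 bins by length, the bin of the longest transcripts, which held Dnmt3a, Tet1, Tet2 and Tet3, had a median log2 ratio of -0.67, and the bin of Dnmt3l had 0.15. The ratio of each gene was therefore also computed from FPKM, from counts scaled in 3 ways, and after centring on all genes or on genes of similar length.

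**Figure D2:**
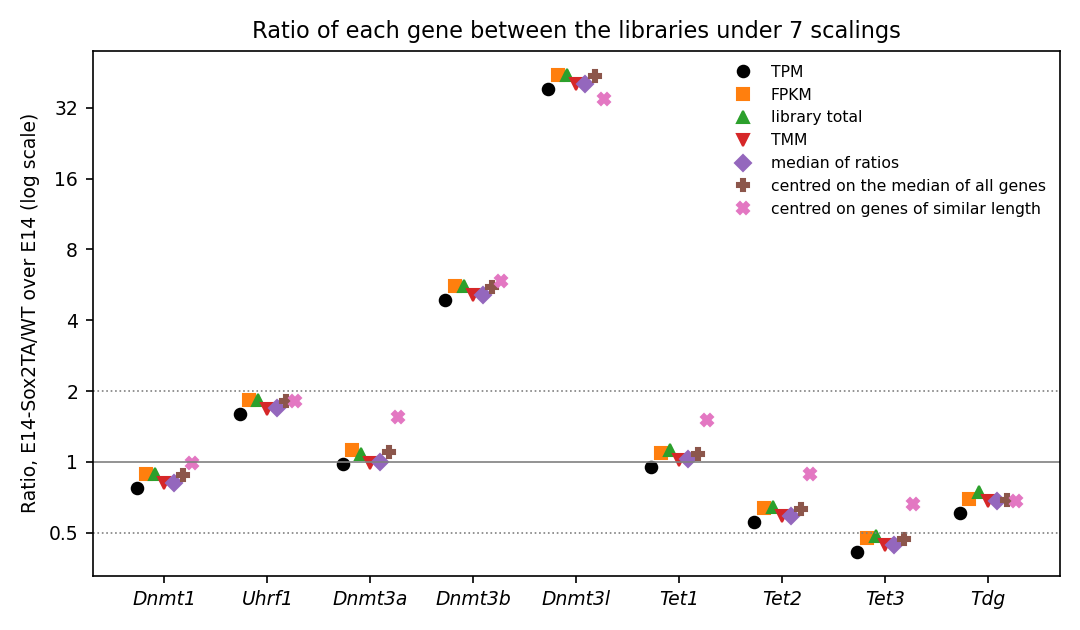
The vertical axis gives the ratio of each gene between the libraries, E14-Sox2TA/WT over E14, on a log scale under 7 scalings, with dotted lines at 2-fold. Dnmt3b and Dnmt3l lie above 2-fold under all 7, Tet3 lies below 0.5 under all but centring on genes of similar length, and Dnmt3a and Tet1 straddle 1.

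The DNMT3 family is shown first by the sequence that separates its members. DNMT3A, DNMT3B and DNMT1 each use a catalytic cysteine that follows a proline. In the mouse GRCm38 annotation this pair lies in exon 18 of the 23 exons of Dnmt3a (residues 705 and 706 of 908), exon 19 of 24 in Dnmt3b (657 and 658 of 860) and exon 32 of 39 in Dnmt1 (1228 and 1229 of 1620). The 51 bases of coding sequence around it, 5′ to 3′ on the strand of the gene with the proline and cysteine codons in capitals, lie at chr12:3902390-3902440 on the plus strand for Dnmt3a, chr2:153677180-153677230 on the plus strand for Dnmt3b and chr9:20911801-20911851 on the minus strand for Dnmt1. Those of Dnmt3l, in exon 11 of 14 at chr10:78056854-78056904 on the plus strand, start at the same 7 shared residues as in Dnmt3a and Dnmt3b and hold no proline-cysteine pair, so no codon is in capitals.
Dnmt1: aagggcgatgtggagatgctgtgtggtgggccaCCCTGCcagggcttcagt
Dnmt3a: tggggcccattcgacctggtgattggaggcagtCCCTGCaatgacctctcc
Dnmt3b: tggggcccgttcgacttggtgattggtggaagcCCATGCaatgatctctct
Dnmt3l: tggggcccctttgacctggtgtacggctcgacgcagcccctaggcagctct
The Dnmt3a and Dnmt3b proteins were identical at 56.4% of 750 aligned residues. Dnmt3l, with 421 residues, was identical to Dnmt3b at 39.9% of 313 aligned residues and to Dnmt3a at 42.3% of 312. The rows that showed the largest differences between the libraries thus belong to a catalytic de novo enzyme and to its inactive cofactor.

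Dnmt3b (chr2:153649411-153687730), which encodes the de novo methyltransferase of the early embryo, had 1382 reads and 13.6 TPM in E14 and 7484 reads and 66.1 TPM in E14-Sox2TA/WT. It was 4.86-fold higher in the latter (interval 4.59 to 5.15). Among genes with at least 1 TPM in the same library, it exceeded 43.9% in E14 and 86.8% in E14-Sox2TA/WT. Dnmt3b therefore went from a middling to a high level, and its ratio stayed between 4.86 and 5.85 under the 7 scalings. In the GENCODE transcripts, 9.81% of the distinct 50-base stretches of Dnmt3b also occur in Dnmt3c, a rodent duplicate of Dnmt3b that acts in male germ cells. Dnmt3c was not analysed here, and how shared reads were counted is not given in the sources used here.

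Dnmt3l (chr10:78042287-78063622), whose product has no methyltransferase activity of its own and stimulates DNMT3A and DNMT3B, had 91 reads and 2.25 TPM in E14. In the E14-Sox2TA/WT library it had 3888 reads and 86.7 TPM. This was 38.6-fold higher (interval 31.3 to 48.0), the largest difference in the set, with a range of 34.7 to 44.3 over the 7 scalings. Dnmt3l exceeded 12.0% of the genes with at least 1 TPM in E14 and 90.2% in E14-Sox2TA/WT. The 5′ end of Dnmt3l overlaps Aire, a gene best known from the thymus, which had 30 reads in E14 and 276 in E14-Sox2TA/WT. Beside them stood 91 and 3888 reads on Dnmt3l. The counting strand is not given in the sources used here, and the part of the overlap in the 38.6-fold was not tested.

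Dnmt3a (chr12:3801559-3914443), the de novo enzyme that predominates in somatic and neural tissue, had 9954 reads and 43.5 TPM in E14 and 10472 reads and 42.4 TPM in E14-Sox2TA/WT. The ratio was 0.975 (interval 0.948 to 1.002), so a difference was not detectable beyond counting error on TPM. Its direction depended on the scaling, with 1.12 on FPKM, 1.08 by library total and 1.11 after centring on all genes, and 0.992 to 0.996 by TMM and median of ratios. After centring on genes of similar length Dnmt3a was 1.55-fold higher.

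Ratios between genes within a library do not depend on a factor that scales a whole library, but they do move with centring on genes of similar length where the genes differ in length. The TPM of Dnmt3b was 0.313 times that of Dnmt3a in E14 and 1.56 times in E14-Sox2TA/WT. Computed from reads, this ratio was 5.15-fold higher in the latter (interval 4.83 to 5.49), and 3.77-fold higher after centring by length. Dnmt3a was thus the more abundant of the de novo transcripts in E14 and Dnmt3b in E14-Sox2TA/WT. The ratio of Dnmt3l to Dnmt3b was 0.165 and 1.31, respectively, or 7.89-fold higher by reads (interval 6.35 to 9.90) and 5.93-fold after centring by length. Of the summed TPM of the DNMT3 family, which was 59.3 and 195, Dnmt3l held 3.79% and 44.4%. Among the catalytic enzymes Dnmt1, Dnmt3a and Dnmt3b, the summed TPM was 130 and 165, or 1.27-fold higher (1.68-fold after centring by length), and the share of Dnmt3b was 10.5% and 40.1%. Dnmt1 held 56.0% and 34.2% of this sum and Dnmt3a 33.5% and 25.7%.

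**Figure D3:**
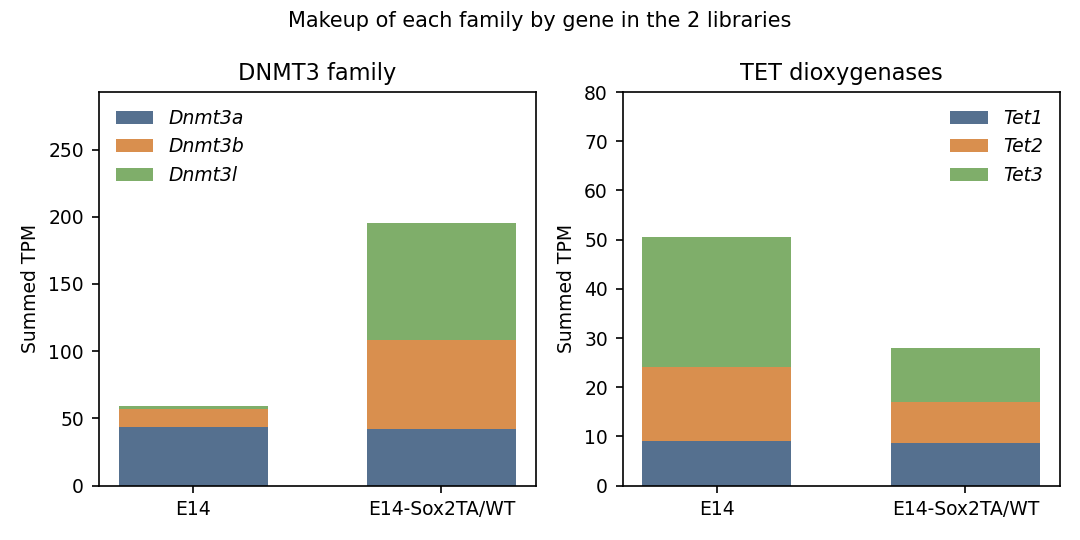
Stacked bars give the summed TPM of the DNMT3 family (left) and of the TET dioxygenases (right) in each library, divided by gene and drawn on separate scales. The DNMT3 sum is 59.3 in E14 and 195 in E14-Sox2TA/WT with nearly equal Dnmt3a segments, and the TET sum is 50.5 and 27.9 with nearly equal Tet1 segments.

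The start regions of Dnmt3b, Dnmt3l and Tet3 are shown because these genes passed the 2-fold rule and because the CpG content of their windows differs widely. Each is a RefSeq window of GRCm38.p6 from 250 bases before the annotated start to 30 bases after it, 5′ to 3′ on the strand of the gene, with each CpG in capitals. They lie at chr2:153649199-153649478 on the plus strand for Dnmt3b, chr10:78042037-78042316 on the plus strand for the most upstream of the 3 starts of Dnmt3l, and chr6:83441649-83441928 on the minus strand for Tet3.
Dnmt3b: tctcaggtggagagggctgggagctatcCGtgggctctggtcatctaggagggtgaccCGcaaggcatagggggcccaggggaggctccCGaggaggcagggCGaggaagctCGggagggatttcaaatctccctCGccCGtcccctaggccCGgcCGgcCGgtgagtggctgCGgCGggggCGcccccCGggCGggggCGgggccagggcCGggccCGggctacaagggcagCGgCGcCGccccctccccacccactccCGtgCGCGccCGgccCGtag
Dnmt3l: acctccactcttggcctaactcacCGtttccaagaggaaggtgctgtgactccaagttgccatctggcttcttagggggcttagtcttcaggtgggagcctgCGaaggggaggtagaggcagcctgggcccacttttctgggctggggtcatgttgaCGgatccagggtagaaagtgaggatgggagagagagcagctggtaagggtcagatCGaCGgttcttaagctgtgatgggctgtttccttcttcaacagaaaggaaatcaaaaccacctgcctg
Tet3: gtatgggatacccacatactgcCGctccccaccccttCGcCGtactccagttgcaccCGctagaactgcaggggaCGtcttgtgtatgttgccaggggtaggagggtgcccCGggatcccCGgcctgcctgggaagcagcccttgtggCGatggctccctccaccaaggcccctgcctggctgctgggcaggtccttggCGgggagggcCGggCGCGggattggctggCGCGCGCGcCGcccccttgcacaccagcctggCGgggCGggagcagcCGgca
In the full RefSeq windows of 300 bases, Dnmt3b had 30 CpG pairs, Tet3 had 22, and the 3 starts of Dnmt3l had 6, 4 and 3. The median over 32851 windows of 27025 genes was 7. Both genes that were higher past 2-fold thus start in windows of different CpG content. The Dnmt3b window had more CpG pairs than 88.3% of all windows. Those of Dnmt3l were below the median, the most upstream only slightly, with more than 43.6% of all windows. The values are per gene and do not tell which of the 3 starts of Dnmt3l was used. Methylation itself was not measured in these samples.

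Short motifs were counted on both strands of the 300-base windows of all 9 genes. The octamer ATGCAAAT, bound by POU factors, was in none of them and in 1.74% of all windows. Of the SOX core sequences, ACAAT was found in the window of Tet1 and at the more downstream of both starts of Uhrf1, beside 31.0% of all windows, and ACAAAG was found at the most downstream of the 3 starts of Dnmt3a and of Dnmt3l, beside 18.7%. The E2F site TTTCGCG was found at the most downstream of the 3 starts of Dnmt1 and the more downstream start of Uhrf1, beside 0.849% of all windows, and TTTGGCG was found at the same start of Dnmt1, beside 1.56%. All E2F matches thus fell in the genes of maintenance methylation. These are matches of letters and not measured sites.

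Of the maintenance genes, Dnmt1 (chr9:20907206-20959888), which encodes the enzyme that methylates the new strand after replication, had 9457 reads and 72.7 TPM in E14. It had 8152 reads and 56.5 TPM in E14-Sox2TA/WT. Dnmt1 was 1.29-fold lower there (interval 1.25 to 1.33), and 1.02-fold lower after centring on genes of similar length, the smallest value of the 7 scalings. It stayed among the more abundant transcripts in both libraries, above 85.5% and 84.3% of the genes with at least 1 TPM.

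Uhrf1 (chr17:56303337-56323486), which encodes the protein that reads hemimethylated CpG and recruits DNMT1, had 6375 reads and 74.8 TPM in E14 and 11382 reads and 119 TPM in E14-Sox2TA/WT. It was 1.60-fold higher in the latter (interval 1.55 to 1.65), within a range of 1.60 to 1.84 over the 7 scalings, and did not reach 2-fold. Dnmt1 and Uhrf1 therefore differed in opposite directions. The ratio of Uhrf1 to Dnmt1 was 1.03 in E14 and 2.11 in E14-Sox2TA/WT, 2.07-fold higher by reads (interval 1.98 to 2.16) and 1.84-fold after centring by length. Of the 50-base stretches of Uhrf1, 14.7% also occur in the annotated gene Gm5648, which was not analysed here.

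Of the TET dioxygenases, Tet1 (chr10:62804570-62887469), the form typical of ESCs, had 3091 reads and 9.14 TPM in E14 and 3351 reads and 8.65 TPM in E14-Sox2TA/WT. The ratio was 0.947 (interval 0.902 to 0.995) on TPM, but between 1.02 and 1.51 under the other 6 scalings, so no direction can be given for Tet1. Tet1 is a gene of pluripotent cells, yet its level was close in both libraries while all 10 pluripotency markers were higher past 2-fold in E14-Sox2TA/WT.

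Tet2 (chr3:133463677-133545136), known as a tumor suppressor of blood cells and also expressed in ESCs, had 3337 reads and 14.9 TPM in E14 and 2077 reads and 8.29 TPM in E14-Sox2TA/WT. It was 1.80-fold lower in the latter (interval 1.70 to 1.90), and 1.13-fold lower after centring on genes of similar length. Tet3 (chr6:83362373-83457208), the form of the oocyte and of neural tissue, had 7309 reads and 26.5 TPM in E14 and 3424 reads and 10.96 TPM in E14-Sox2TA/WT. It was 2.41-fold lower (interval 2.32 to 2.51), and between 2.07-fold and 2.41-fold lower under 6 of the 7 scalings. After centring on genes of similar length it was 1.52-fold lower and no longer passed the 2-fold rule.

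The summed TPM of the 3 TET genes was 50.5 in E14 and 27.9 in E14-Sox2TA/WT, 1.81-fold lower, but only 1.14-fold lower, at 44.4, after centring on genes of similar length. Tet3 held 52.4% of this sum in E14 and 39.3% in E14-Sox2TA/WT, while Tet1 held 18.1% and 31.0%. Tet2 held 29.5% and 29.7%, so the shares of Tet1 and Tet3 differed and that of Tet2 hardly did. The ratio of Tet1 to Tet3 was 0.345 in E14 and 0.789 in E14-Sox2TA/WT, 2.31-fold higher by reads (interval 2.17 to 2.47). All 3 transcripts fell in the bin of the longest transcripts, so centring on that bin leaves the ratios between them as they are. The catalytic DNMT sum was 2.57 times the TET sum in E14 and 5.91 times in E14-Sox2TA/WT, or 4.92 times after centring by length.

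Tdg (chr10:82629814-82650799), which encodes the glycosylase that removes formylcytosine and carboxylcytosine, had 2352 reads and 31.4 TPM in E14 and 1692 reads and 19.0 TPM in E14-Sox2TA/WT. It was 1.65-fold lower in the latter (interval 1.55 to 1.76), between 1.35-fold and 1.65-fold over the 7 scalings. This row shares more sequence with other genes than any other of the set. Of the 50-base stretches of Tdg, 41.2% also occur in other annotated genes, and 3 of these have rows in the table. Gm9855 had 5902 and 5870 reads, more than Tdg itself, Tdg-ps had 294 and 472, and Gm5597 had 280 and 212. Summed over the 4 rows, the level was 128 TPM in E14 and 105 TPM in E14-Sox2TA/WT, 1.21-fold lower, and 26.6% and 20.5% of the summed reads were on Tdg. How the counting divided reads between these rows is not given in the sources used here.

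The genes next to the 9 members gave no shared pattern. For each member the nearest expressed neighbour on each side was taken, which gave 18 genes with ratios of 0.319 to 6.28 and a median log2 ratio of -0.02. By the 2-fold rule 3 of the 17 with at least 10 TPM were higher and 2 were lower, beside 10.8% higher and 18.7% lower of all genes at that level. The neighbours of Dnmt3b, Commd7 and Mapre1, had ratios of 0.774 and 0.825, so they were slightly lower where Dnmt3b was higher. Of the neighbours of Dnmt3l, the glycolytic gene Pfkl, 32.5 kb away, had a ratio of 0.707. Icosl, which encodes a costimulatory ligand and lies 5.75 kb from Dnmt3l, had 108 and 752 reads and was 6.28-fold higher. Dnmt3l, Icosl and the overlapping Aire were thus all higher in E14-Sox2TA/WT. Uhrf1 lies between Plin3, at a ratio of 1.93, and the histone demethylase gene Kdm4b, at 0.384. Over the 7 chromosomes that carry the set, the median log2 ratio lay between -0.06 and 0.08 of that of all genes.

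**Figure D4:**
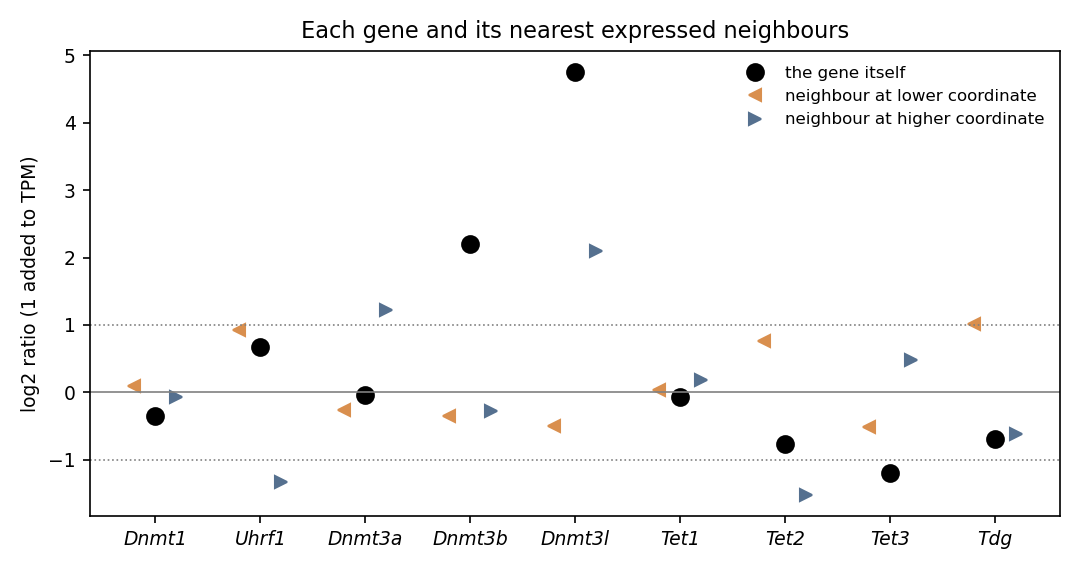
The vertical axis gives the log2 ratio of each gene, E14-Sox2TA/WT over E14 with 1 added to TPM, as a black circle, and those of its nearest neighbours with at least 1 TPM as triangles, with dotted lines at 2-fold. Dnmt3b stands above both of its neighbours, and the neighbour of Dnmt3l at the higher coordinate, Icosl, lies at 2.09.

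Other genes of the pathway were taken as lists assembled by hand. The counts of higher and lower genes in each list stand beside 47.5% higher and 52.5% lower over all genes. Counts past 2-fold, also those of the cell type markers below, stand beside 10.8% higher and 18.7% lower of all genes with at least 10 TPM. Of 9 partners of maintenance methylation, 8 were higher and 1 was lower, 2 of them higher past 2-fold, with a median log2 ratio of 0.47. Hells, a chromatin remodeler needed for methylation of repeats, had 18.7 and 79.2 TPM and was 4.23-fold higher. Dppa3, which restrains UHRF1 in the germ line and the oocyte and is also a germ cell marker, had 5.30 and 39.6 TPM and was 7.47-fold higher. Cdca7, the partner of HELLS, had 55.8 and 97.1 TPM, and Pcna, the replication clamp, 234 and 324 TPM. The ratio of Uhrf1 to Pcna was 0.319 and 0.368, 1.15-fold higher, or 1.47-fold after centring by length.

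The chromatin partners of de novo methylation showed no common direction. Of 18 genes, 8 were higher and 10 were lower, with 0 higher and 1 lower past 2-fold, and the median log2 ratio of -0.12 became 0.07 on FPKM. The gene past 2-fold was Ehmt2, which encodes the H3K9 methyltransferase G9a, with 151 and 50.1 TPM, 3.01-fold lower. Setd2, which sets the H3K36 mark that DNMT3B binds, had 44.2 and 23.5 TPM. Trim28, the corepressor of zinc finger proteins at transposons, had 213 and 351 TPM, so its ratio was opposite to those of Ehmt2 and Setd2. Of 7 methyl-CpG readers, 5 had at least 10 TPM and none of these passed 2-fold. Over all 7 readers the median log2 ratio was -0.29, and 0.01 after centring on genes of similar length. Over the 5 with at least 10 TPM it was 0.08. Mbd3 had 128 and 138 TPM and Mbd1 34.9 and 22.2 TPM. Trdmt1, formerly called Dnmt2 and an RNA methyltransferase, had 5.88 and 6.11 TPM.

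The partners and cofactor enzymes of the TET proteins were mixed. Of 14 genes, 6 were higher and 8 lower, and of the 13 with at least 10 TPM, 3 were higher and 1 was lower past 2-fold. Over all 14 genes the median log2 ratio was -0.18, and 0.01 on FPKM. Over the 13 with at least 10 TPM it was -0.34. Idh1 and Idh2, whose enzymes supply 2-oxoglutarate, had 231 and 125 TPM and 199.9 and 128.8 TPM. Gadd45b, a stress-induced gene linked to demethylation, had 7.11 and 27.2 TPM. Cxxc4, which encodes a CXXC protein that binds TET2 and is the next expressed gene after Tet2 on chromosome 3, 691 kb away, had 21.5 and 6.86 TPM and was 3.14-fold lower. Prdm14, which represses Dnmt3b in naive ESCs and primordial germ cells, had 0 reads in E14 and 342 in E14-Sox2TA/WT, at least 102-fold higher on the TPM scale against a floor of 3 reads per library. At 4.91 TPM it did not reach the level of the 2-fold rule. Dnmt3b and this known repressor were thus both higher in the same library.

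Of 15 base excision repair genes, which complete demethylation after TDG, 8 were higher and 7 lower. Of the 14 with at least 10 TPM, Ung, the uracil glycosylase, was 2.11-fold higher with 18.0 and 37.8 TPM, and Neil1 was 2.33-fold lower with 12.0 and 5.15 TPM. The median log2 ratio was 0.24 over all 15 genes and 0.04 over the 14 with at least 10 TPM. Genes of methyl donor metabolism, which make S-adenosylmethionine and clear its product, had a median of 0.56, with 12 higher and 4 lower of the 16 that reached 1 TPM. Mat2a, the S-adenosylmethionine synthetase, had 131 and 241 TPM, Ahcy 85.0 and 122 TPM, and Shmt1, of the folate cycle, 23.5 and 65.7 TPM. Shmt1 was the gene past 2-fold among the 13 with at least 10 TPM. Below that level, Nnmt, which uses S-adenosylmethionine to methylate nicotinamide, had 1.25 and 6.36 TPM, and Mtr, the methionine synthase, 4.43 and 8.995 TPM.

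A further list held 15 germline genes, gathered as genes with methylated promoters in somatic cells. Of these, 14 were higher and 1 was lower, with a median log2 ratio of 2.02. Of the 7 with at least 10 TPM, 5 were higher and 1 was lower past 2-fold. Dazl, an RNA-binding protein gene of germ cells, had 3.12 and 53.6 TPM and was 17.2-fold higher. Sycp3, of the synaptonemal complex, had 10 and 786 reads and was 76.1-fold higher (interval 41.2 to 159). Hormad1, a meiotic chromosome axis gene, had 8 and 795 reads and was 97.7-fold higher (interval 49.3 to 227). Tex19.1 had 2.48 and 43.8 TPM, and Tdrkh, a piRNA pathway gene, was 2.92-fold lower, at 36.7 and 12.6 TPM. Tdrkh was the most abundant of the list in E14, so its transcript was not silent there. Several genes of the list are also expressed in ESCs and germ cells.

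Cell type markers differed between the libraries along with the set. All 10 pluripotency markers were higher past 2-fold in E14-Sox2TA/WT, with summed TPM of 92.2 and 2022 and a median log2 ratio of 3.69. Pou5f1 had 19.0 and 304 TPM and Nanog 8.37 and 116 TPM. Of 13 neuronal markers, 12 were lower past 2-fold, with a median of -2.18, and all 5 neural progenitor markers were lower, 3 of the 4 with at least 10 TPM past 2-fold. Tubb3 had 1722 and 170.3 TPM. Among 8 germ cell markers 7 were higher and the median was 2.28, while 4 of the 5 with at least 10 TPM passed 2-fold. Dazl, Ddx4 and Mael are also in the germline list and Dppa3 among the maintenance partners, so these lists are not independent. The part of these cell types in the values of the set was not tested.

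Set against Pou5f1, the members differed among themselves. The ratio of Dnmt3b to Pou5f1 was 0.714 in E14 and 0.217 in E14-Sox2TA/WT, 3.29-fold lower by reads (interval 2.97 to 3.64) and 2.46-fold after centring by length, so Dnmt3b was higher by less than Pou5f1 was. The ratio of Dnmt3l to Pou5f1 was 0.118 and 0.285, respectively, 2.40-fold higher (interval 1.92 to 3.03), so Dnmt3l was higher by more than Pou5f1. Other pluripotency markers gave a different comparison. On TPM the 10 markers were higher by 6.17-fold (Lin28a) to 39.4-fold (Dppa5a). The 38.6-fold of Dnmt3l lay within this range and the 4.86-fold of Dnmt3b below it. Of 19 proliferation markers, 16 were higher and 3 lower, with a median log2 ratio of 0.47. On the same scale Uhrf1 had 0.67 and Dnmt1 -0.36, and a link of either to proliferation was not tested. On TPM, without centring by length, Mki67 was 2.50-fold lower and Bub1 2.05-fold higher, and Top2a had 155 and 153 TPM.

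Markers of host cells and other tissues were mixed. Of 10 macrophage and neutrophil markers, all were higher, with summed TPM of 1059 and 1781, and 1 of the 9 with at least 10 TPM, Lyz2, passed 2-fold. The medians of 5 endothelial, 4 erythroid and 4 cartilage markers with at least 1 TPM were 0.04, 0.10 and 0.15, and single genes lay on either side. Of these endothelial, erythroid and cartilage markers, Sox9 alone passed the 2-fold rule, 2.61-fold lower at 44.1 and 16.9 TPM. Below 10 TPM in both libraries, Tek was 2.92-fold and Acan 3.99-fold higher, and Matn1 had 0 and 46 reads. All 6 endoderm markers were higher, at a median log2 ratio of 3.06, and Afp had 31 and 8490 reads. The plot of gene lists sets these medians beside that of the 9 enzymes.

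**Figure D5:**
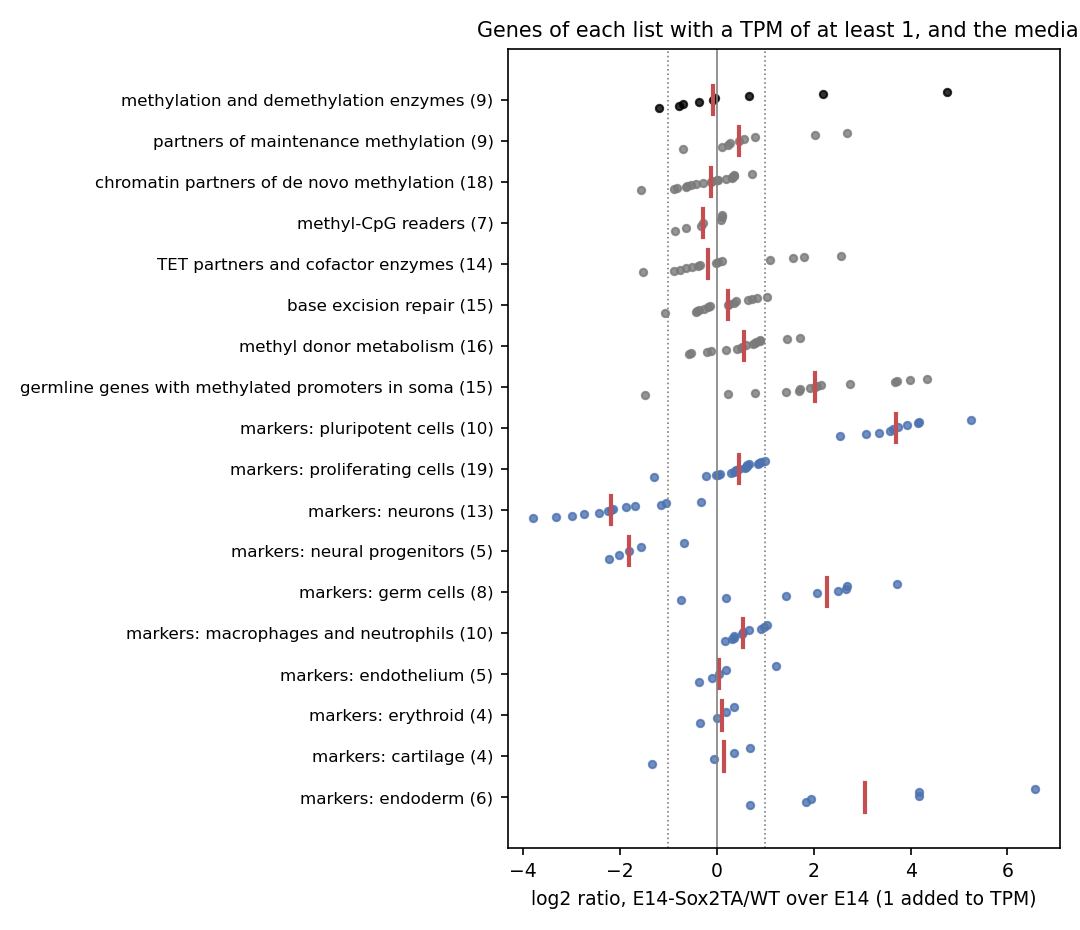
The horizontal axis gives the log2 ratio of each gene, E14-Sox2TA/WT over E14 with 1 added to TPM, for genes with at least 1 TPM in at least 1 library. Black points are the 9 enzymes, gray points other genes of the pathway, blue points cell type markers, and red bars medians, with the number of genes in parentheses and dotted lines at 2-fold. The enzymes spread from -1.20 to 4.76 around a median of -0.07, the pluripotency markers lie from 2.54 to 5.25, and the neuronal markers from -3.79 to -0.32.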

How the data were processed

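RNA-seq of polyA RNA from 1 E14 and 1 E14-Sox2TA/WT teratoma library was run on an Illumina NovaSeq 6000 sequencer. For genes of mm10, the authors deposited unnormalized read counts, FPKM and TPM. The submitters' processing notes name bcl2fastq 2.20.0, Trimmomatic, HISAT2 2.1.0 and StringTie 2.1.3b, without roles. The members and all gene lists were chosen with earlier results of these data known. The ratio of deposited TPM was computed for each gene, and the rule of the methods was applied (fold change above 2, with a TPM of 10 or more in either library). Log2 ratios of lists used 1 added to each TPM and genes with TPM of at least 1. No p-value was computed. Counting error was given by 95% intervals of reads, and a count of 0 was read as up to 3 reads. Alternatives covered pseudocount, TPM filter, fold threshold, FPKM, counts scaled by library total, edgeR's TMM factors or median-of-ratios size factors, and centring on all genes or on genes of similar length in 20 bins (length implied by counts and FPKM, 98.8% of genes).

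Named genes were all members, in each list the 3 most abundant and the 2 most different in log2 ratio, nearest neighbours, relatives and copies sharing 50-base stretches, with selected ones printed. Gene positions and start windows came from RefSeq GRCm38, which matched 45679 of 45777 identifiers, and coding sequence and shared 50-base stretches from GENCODE on the same build. Simulated counts with 200 changed genes were used to test the calls. Software was edgeR 4.0.16 in R 4.3.3, and Biopython 1.88, scipy 1.17.1, pandas 2.3.3, numpy 2.4.6 and matplotlib 3.10.9 in Python 3.11.15.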

Additional observations from a re-analysis of the deposited data

How the results depend on the processing

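Dnmt3b and Dnmt3l passed 2-fold under all 7 scalings, both other filters and both other thresholds. Tet3 did not when centred on genes of similar length or above 3-fold, which left 0 members lower in each case. Above 1.5-fold, 3 of the 8 members with at least 10 TPM were higher (with Uhrf1) and 3 lower (with Tet2 and Tdg). Beside them, 2109 of the 11578 genes at that level were higher and 3742 lower. The signs of Dnmt3a and Tet1 depended on the scaling, and no other member changed sign. Over all genes, 1253 were higher and 2167 lower past 2-fold with at least 10 TPM, 3585 and 3508 with the filter lowered to 1 TPM, 9156 and 6015 with it dropped, 2109 and 3742 above 1.5-fold, and 663 and 1015 above 3-fold. Of the called genes 63.4% were lower on TPM, 51.1% on FPKM, 50.9% by library total, 59.3% by TMM, 59.0% by median of ratios and 51.9% after centring on all genes. Centring on genes of similar length, chosen for ratios and sums after seeing the data, gave changes in the ratio of 3.77 for Dnmt3b to Dnmt3a, 5.93 for Dnmt3l to Dnmt3b, 22.4 for Dnmt3l to Dnmt3a, 1.84 for Uhrf1 to Dnmt1, 1.58 for Dnmt3a to Dnmt1, 1.04 for Tdg to Tet3, 0.406 for Dnmt3b to Pou5f1, 1.47 for Uhrf1 to Pcna and 1.91 for the DNMT to the TET sum. The sums themselves changed by 1.68 (Dnmt1, Dnmt3a and Dnmt3b), 3.79 (DNMT3 family) and 0.880 (TET). The median of the germline list was 0.52 with 10 added to each TPM in place of 1. Of 179 list alternatives, 11 in 5 lists changed sign, namely those of de novo chromatin partners, methyl-CpG readers, TET partners, erythroid and cartilage markers. Leaving out a library was not possible. No paired analysis was possible because each group holds a single library. Depth limits Dnmt3l in E14, at 91 reads, more than any other member. The causes of these shifts were not tested.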
